A study of Homo sapiens with 2 samples.

Results

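The guanylate-binding protein genes GBP1, GBP2, GBP3, GBP4 and GBP5 were followed through 1 pooled single-cell library of human tumour cells. They were taken by symbol from the gene expression rows, where each symbol matched 1 row, and made up 5 of the 36601 genes measured. The cells were OVCAR5, an established ovarian carcinoma line that carried an IFNg-sensing reporter and was CFP+, grown as tumours in NSG-B2m-/- mice. Cytokines were injected into the tumours, and CFP+ cells were sorted from a pool of hashtagged single-cell suspensions. Per the pool's description, TNFa (10 ng/ml) was given for 6 h in 3 tumours, and both IFNg (100 ng/ml) and TNFa (10 ng/ml) for 6 h in 2. IFNg alone (100 ng/ml) was given for 24 h in 2 tumours and for 48 h in 1. The unexposed tumours numbered 2 at 6 h, 2 at 24 h and 1 at 48 h. The treatment field of each deposited library names a single condition, which is at odds with that description. All groups share the line, the reporter, the host and the sort, and the host lacks B2m.

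Hashtags are antibodies with a DNA barcode that mark the suspension a cell came from. The cells carried them in pairs, 13 pairs for 13 tumours, and each pair is named here by its hashtags. No source used here gives the tumour or treatment of a pair. For this reason exposed and unexposed tumours were not compared, no test between pairs was made, and each pair is described on its own. Levels are UMIs (counted molecules) per 1000000 UMIs of the pair, abbreviated CPM. They are not divided by gene length, so levels are compared between pairs for 1 gene and not between genes. Ranges in parentheses are exact 95% intervals, which cover counting error only.

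Guanylate-binding proteins are large GTPases related to the dynamins. Their genes are among those most strongly induced by interferon gamma, and the proteins assemble on the membranes of intracellular bacteria and parasites, where they help to activate caspase-4 and inflammasomes. GBP1, GBP2 and GBP5 end in a CaaX box that receives a lipid anchor, while GBP3 and GBP4 lack one.

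The members with an entry in the RefSeq promoter table (GRCh38.p14) were GBP1, GBP3 and GBP4, 3 of 5. Their sequences around the transcription start are shown because each holds a match to the interferon-stimulated response element, a motif bound by IRF factors. The motifs searched on both strands were GAAA, any 2 bases and GAAA for that element, TTCNNNGAA for the gamma-activated site, and GGG, any 5 bases and CC for a kappa-B site. Capitals mark the matched bases, printed on the gene's own strand, so the first motif appears as its reverse complement.
GBP1, chr1:89065318-89065343, minus strand: cgaagtacTTTCAGTTTCatattact
GBP3, chr1:89022847-89022872, minus strand: agaagtacTTTCAGTTTCattaggct
GBP4, chr1:89198929-89198954, minus strand: gcatgtccTTTCAATTTCggttctca

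Counted from the start in the RefSeq table, the match began at -127 in GBP1, at base 3 after the start in GBP3 and at -4 in GBP4. The GENCODE 29 spans given further on end elsewhere: the GBP1 and GBP3 matches lie inside the spans of those genes, and the GBP4 match lies outside its span. Of 35116 promoters of the same length (250 bases before to 50 after the start), 3.57% held this motif, 7.66% the gamma-activated site and 58.7% the kappa-B letters. The 250 bases before the RefSeq start of GBP3 are shown because they hold a gamma-activated site match, in capitals.
GBP3, chr1:89022867-89023116, minus strand: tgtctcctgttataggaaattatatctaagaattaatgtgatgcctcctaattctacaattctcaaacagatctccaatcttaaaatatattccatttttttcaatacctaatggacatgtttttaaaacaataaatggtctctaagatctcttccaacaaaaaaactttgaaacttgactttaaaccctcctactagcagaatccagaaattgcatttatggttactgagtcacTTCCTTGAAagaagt

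That match lies at -15 in GBP3, and the windows of GBP1 and GBP4 held no match to TTCNNNGAA. A gamma-activated site with other letters would be missed by this search, so its absence from those windows was not shown. A kappa-B match lay at -45 in GBP4 and in no window of GBP1 or GBP3. These matches describe letters in a window and were not tested for binding.

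The library held 9083 barcodes, all distinct. A cell had to have at least 500 genes and no more than 20% mitochondrial UMIs, which 3611 barcodes met, and 2994 of these carried a clear hashtag pair. The pairs held 110 to 507 cells and 765923 to 5058403 UMIs, with median depths of 6434.5 to 9450.0 UMIs per cell. The share of a pair's barcodes that was kept lay between 24.3% (HTO3+HTO6) and 58.2% (HTO4+HTO7). Of 8 epithelial markers all were detected, 95.2% of cells had 3 or more of them, and their summed level lay between 3721 CPM (HTO2+HTO8) and 7540.1 CPM (HTO4+HTO6). Markers of other cells were low in sum: 0.745 to 35.2 CPM for 5 fibroblast markers, 40.5 to 72.2 CPM for 6 macrophage or monocyte markers, 0 to 6.87 CPM for 4 endothelial markers (KDR at 0) and 0 to 1.16 CPM for 4 T cell markers (CD2 and CD3E at 0). Only 2 cells had 3 or more fibroblast markers and 13 cells had 3 or more macrophage or monocyte markers. Since HTO2+HTO8 had the lowest epithelial sum and the highest GBP sum, the part of that sum in the GBP levels was not tested.

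The 5 genes together gave 37627 UMIs. Their summed level was 5644 CPM (5536 to 5753) in HTO2+HTO8 and 5065 CPM (4979 to 5153) in HTO2+HTO9. HTO4+HTO9 had 2468 CPM and HTO4+HTO8 had 2008 CPM, and below them stood 881 CPM in HTO2+HTO6, 792 CPM in HTO2+HTO7 and 335 CPM in HTO2+HTO5. The remaining 6 pairs lay close together, between 135 CPM (HTO3+HTO5) and 166 CPM (HTO4+HTO7). Each step down the order from HTO2+HTO8 to HTO4+HTO7 was larger than counting error, 7 of the 12 steps, and the 5 steps among the 6 lowest pairs were within it. A shared hashtag did not fix the level, since HTO3+HTO9 stood at 142 CPM and HTO2+HTO9 at 5065 CPM.

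**Figure D1:**
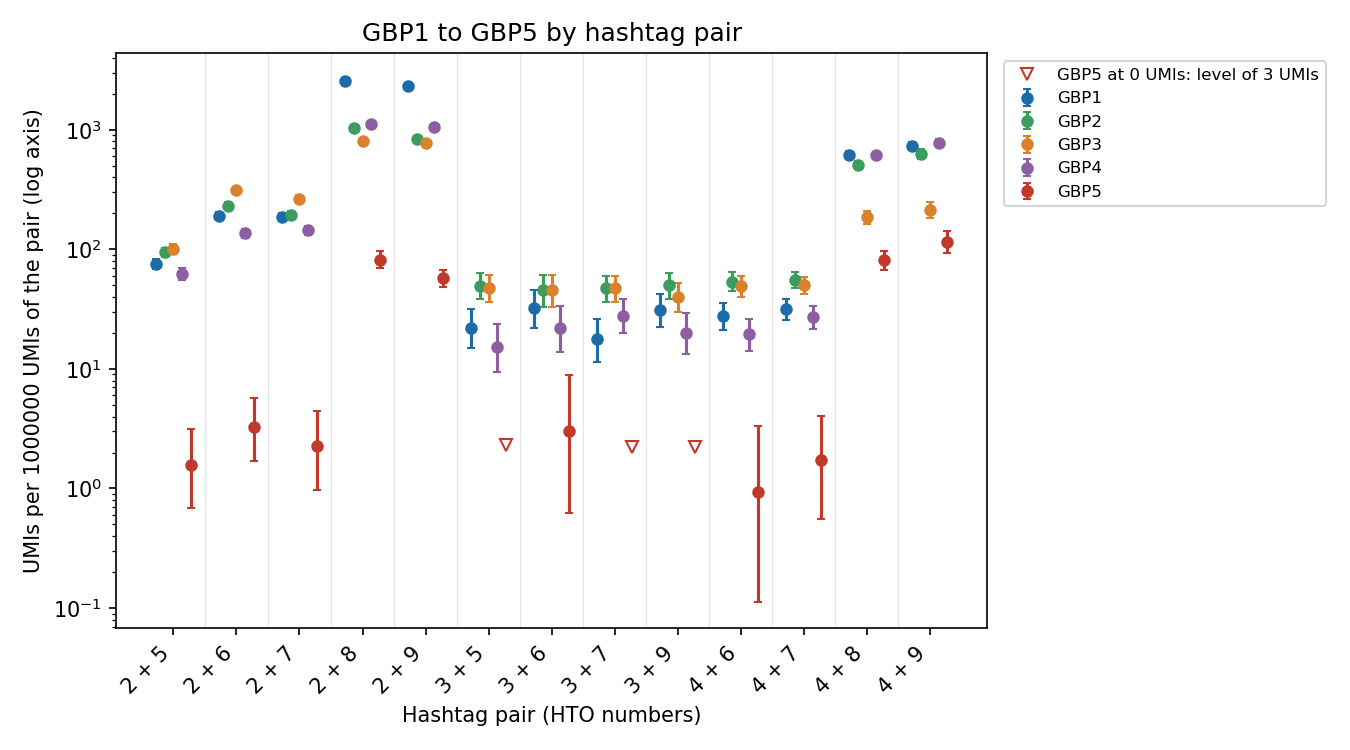
Level of each gene in each of the 13 hashtag pairs, in UMIs per 1000000 UMIs of the pair on a log axis, with exact 95% Poisson intervals for counting error; open triangles stand for GBP5 at 0 UMIs and mark the level of 3 UMIs. GBP1 reaches 2580.2 in HTO2+HTO8, GBP3 is higher in HTO2+HTO6 and HTO2+HTO7 than in HTO4+HTO8 and HTO4+HTO9, and GBP5 stands clear of its lowest levels in HTO2+HTO8, HTO2+HTO9, HTO4+HTO8 and HTO4+HTO9.

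The spread over the pairs was wide for every member. All 5 of 5 had a highest pair 4-fold or more above their lowest, where 2857 of 13596 genes with 30 UMIs or more did so, 21% of them. The median ratio was 73.7 over the members and 2.56 over all genes tested. For this count a pair with fewer than 3 UMIs was entered at 3 UMIs. With a stricter cell filter (1000 genes and a 10% limit on mitochondrial UMIs), which left 12 to 69 cells a pair, the ratio of highest to lowest pair was 81.2 for the sum, 74.0 for GBP2 and 35.8 for GBP3, in place of 41.9, 23.0 and 20.2.

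GBP1, which binds bacterial lipopolysaccharide and starts the assembly of the other members on bacteria, had the widest range of the 4 members found in every pair. It stood at 2580.2 CPM (2507 to 2654) in HTO2+HTO8 and 2344 CPM in HTO2+HTO9, and HTO4+HTO9 had 735 CPM and HTO4+HTO8 had 622 CPM. It was at 192 CPM, 187 CPM and 75.3 CPM in HTO2+HTO6, HTO2+HTO7 and HTO2+HTO5. The other 6 pairs lay between 17.7 CPM (HTO3+HTO7) and 32.2 CPM (HTO3+HTO6). The ratio of the highest to the lowest pair was 146 (98.0 to 228), and 93.1 with no cell filter. HTO2+HTO8 and HTO2+HTO9 were thus set apart from every other pair, with a 3.19-fold step (2.92 to 3.48) between HTO2+HTO9 and HTO4+HTO9.

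GBP2, a prenylated member that restrains the protease furin together with GBP5, differed less from pair to pair. Its levels were 1043 CPM (997 to 1090.1) in HTO2+HTO8, 831 CPM in HTO2+HTO9, with 629 CPM for HTO4+HTO9 and 511 CPM for HTO4+HTO8. It stood at 232 CPM in HTO2+HTO6, 193 CPM in HTO2+HTO7 and 94.5 CPM in HTO2+HTO5, and at 45.3 to 55.6 CPM elsewhere. The highest pair exceeded the lowest, HTO3+HTO6, 23.0-fold (17.1 to 31.6). The step between HTO2+HTO9 and HTO4+HTO9 that was 3.19-fold for GBP1 was 1.32-fold (1.20 to 1.46) for GBP2.

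GBP3, a member without a CaaX box that joins GBP1 coats, had another order of pairs. After HTO2+HTO8 at 811 CPM (771 to 853) and HTO2+HTO9 at 775 CPM, which did not differ beyond counting error, came HTO2+HTO6 at 317 CPM and HTO2+HTO7 at 266 CPM. HTO4+HTO9 at 213 CPM and HTO4+HTO8 at 185 CPM followed, also within counting error of each other, then HTO2+HTO5 at 101 CPM. The other pairs lay between 40.2 and 50.1 CPM, so the full ratio was 20.2 (15.4 to 27.0), with an interval that overlaps that of GBP2. GBP3 was the only one of the 5 that was higher in HTO2+HTO6 and HTO2+HTO7 than in HTO4+HTO8 and HTO4+HTO9 with the filter used here.

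That reversal of order was 1.71-fold (1.50 to 1.96) for GBP3 in HTO2+HTO6 over HTO4+HTO8 and 1.49-fold (1.26 to 1.76) over HTO4+HTO9. HTO2+HTO7 exceeded HTO4+HTO8 by 1.43-fold (1.25 to 1.65) and HTO4+HTO9 by 1.25-fold (1.06 to 1.48). In the other direction, HTO4+HTO9 exceeded HTO2+HTO6 by 3.83-fold (3.42 to 4.28) for GBP1, 2.71-fold for GBP2, 5.66-fold for GBP4 and 35.5-fold (19.4 to 71.3) for GBP5. With the stricter filter, which left 27 cells in HTO4+HTO8 and 50 in HTO2+HTO6, the GBP3 ratio of HTO2+HTO6 to HTO4+HTO8 was 0.996 (0.731 to 1.37), so the order of those pairs was lost there. Of HTO2+HTO7, with 67 cells, to HTO4+HTO8 it was 0.846 (0.623 to 1.16) under that filter. Of HTO2+HTO6 over HTO4+HTO9 it was 1.42 (0.974 to 2.12) under that filter.

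GBP4, the other member without a CaaX box and a docking partner of caspase-4 on GBP1-coated bacteria, stood at 1128 CPM (1080.1 to 1177) in HTO2+HTO8 and 1057 CPM in HTO2+HTO9. HTO4+HTO9 had 774 CPM and HTO4+HTO8 had 610.2 CPM. HTO2+HTO7 and HTO2+HTO6 had 144 and 137 CPM, within counting error of each other, and HTO2+HTO5 had 62.5 CPM. The rest lay between 15.3 CPM in HTO3+HTO5 and 28.0 CPM in HTO3+HTO7, and the ratio of highest to lowest was 73.7 (47.6 to 121). GBP4 had its widest gap between neighbouring pairs from HTO4+HTO8 down to HTO2+HTO7, 4.24-fold (3.80 to 4.73), at the place in the order where GBP3 ran the opposite way.

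GBP5, a Golgi-associated member that also restrains furin and promotes NLRP3 inflammasome assembly, gave 548 UMIs in all. Its highest pair was HTO4+HTO9 with 116 CPM (93.3 to 143), ahead of HTO2+HTO8 with 82.2 CPM, HTO4+HTO8 with 80.8 CPM and HTO2+HTO9 with 57.8 CPM. HTO4+HTO9 exceeded HTO2+HTO8 by 1.41-fold (1.08 to 1.85), and by 5.26-fold with the stricter filter, whereas the other 4 members were highest in HTO2+HTO8. In the other 9 pairs GBP5 was at 3.27 CPM or less, and 3 of them, HTO3+HTO5, HTO3+HTO7 and HTO3+HTO9, had 0 UMIs.

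Against those 3 pairs, entered at the limit of 3 UMIs that a count of 0 allows, GBP5 in HTO4+HTO9 was at least 50.6-fold, 52.6-fold and 52.0-fold higher. Against the 2 UMIs of HTO4+HTO6 the ratio was 125 (33.7 to 1051). HTO2+HTO6, with 12 UMIs of GBP5, lay 17.7-fold (9.82 to 35.0) below HTO2+HTO9. For GBP5 the pairs therefore formed a high set of 4 and a low set of 9 with no pair between 3.27 and 57.8 CPM, while GBP1 to GBP4 had HTO2+HTO5, HTO2+HTO6 and HTO2+HTO7 at levels between.

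The make-up of the family changed with these differences. Over all pairs GBP1 took 38.1% of the summed UMIs, GBP2 20.9%, GBP3 18.7%, GBP4 20.9% and GBP5 1.46%. GBP1 took 45.7% (44.8 to 46.7) in HTO2+HTO8 and 46.3% (45.4 to 47.1) in HTO2+HTO9, but 31.0% in HTO4+HTO8, 29.8% in HTO4+HTO9 and 12.6 to 23.6% in the other pairs. A pair's share within the family does not depend on its total depth, so these differences are separate from the scaling to CPM.

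GBP3 showed the reverse pattern of share. It made up 36.0% (34.3 to 37.6) of the family in HTO2+HTO6, 33.5% in HTO2+HTO7 and 30.1% in HTO2+HTO5, which lie within the 28.4 to 35.2% of the 6 lowest pairs or next to it. Its share was 14.4% in HTO2+HTO8, 15.3% in HTO2+HTO9, 9.22% in HTO4+HTO8 and 8.62% in HTO4+HTO9. GBP3 thus held about the same place in the family in the pairs of low and of middle GBP level, and a smaller place in the 4 pairs of highest level.

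The ratio of GBP1 to GBP3 UMIs separated the pairs without overlap: 3.03 to 3.45 in HTO2+HTO8, HTO2+HTO9, HTO4+HTO8 and HTO4+HTO9, and 0.375 to 0.778 in the other 9. GBP4 to GBP3 split the first 4 further, at 1.39 (1.30 to 1.49) in HTO2+HTO8 and 1.36 (1.29 to 1.45) in HTO2+HTO9 against 3.29 (2.88 to 3.78) in HTO4+HTO8 and 3.64 (3.05 to 4.35) in HTO4+HTO9. GBP5 to GBP1 did the same, at 0.0318 and 0.0247 in HTO2+HTO8 and HTO2+HTO9 and at 0.130 and 0.158 in HTO4+HTO8 and HTO4+HTO9.

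**Figure D2:**
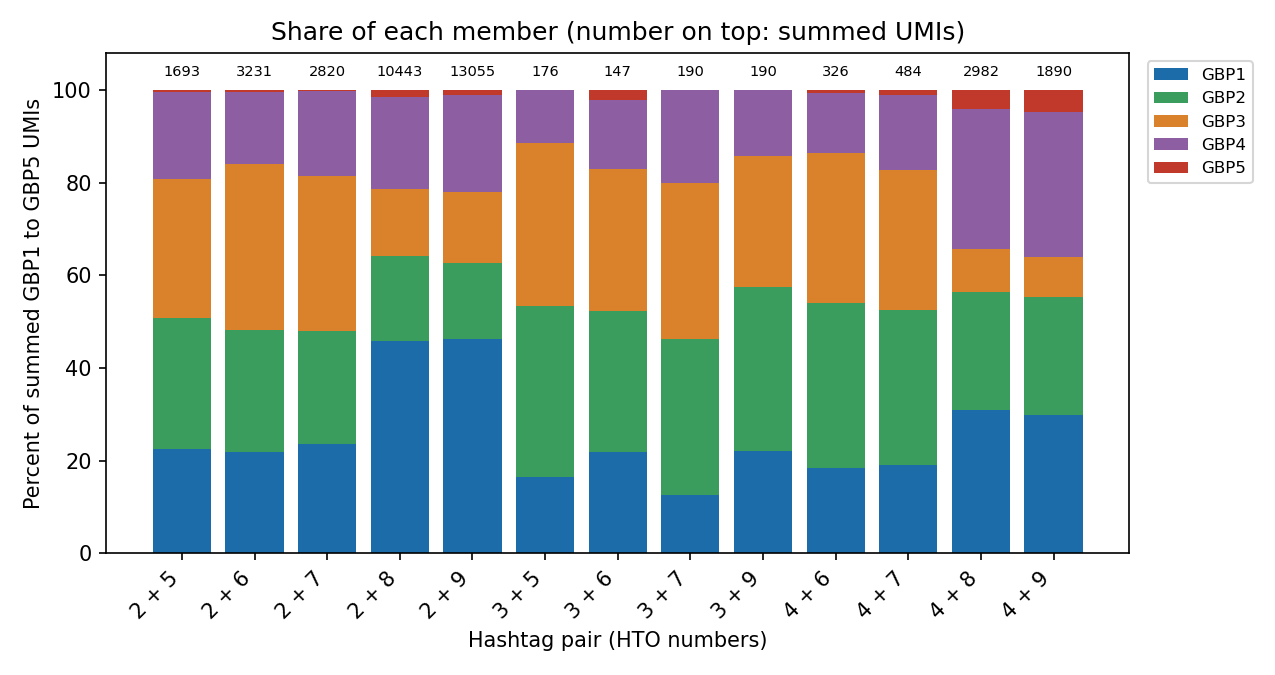
Percent of the summed GBP1 to GBP5 UMIs taken by each gene in each hashtag pair, with the summed UMIs above the bar. GBP1 takes 45.7% and 46.3% in HTO2+HTO8 and HTO2+HTO9, GBP3 takes 36.0% in HTO2+HTO6, and GBP4 (31.4%) and GBP5 (4.71%) take their largest shares in HTO4+HTO9.

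The differences were also seen cell by cell. Cells were thinned to 4000 UMIs each, which left out 186 shallower cells and kept 2808. A GBP1 UMI was then found in 98.9% of cells of HTO2+HTO8, 94.8% of HTO2+HTO9, 90% of HTO4+HTO9 and 76.0% of HTO4+HTO8. It was found in 47.2% of HTO2+HTO6, 45.2% of HTO2+HTO7, 22.2% of HTO2+HTO5 and 5.63 to 12.4% of the other pairs. The shares before thinning were 99.5%, 96.3%, 90.9% and 79.2% in the first 4 pairs in that order. No cell type known to lack these genes was present in number, so a background share could not be set beside them.

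GBP5 was found in 15.9 to 23.3% of thinned cells of HTO2+HTO8, HTO2+HTO9, HTO4+HTO8 and HTO4+HTO9 (26.9 to 34.1% before thinning), so most cells of these pairs had no GBP5 UMI. The shares of HTO4+HTO9, 23.3% (15.1 to 33.4), and HTO2+HTO8, 20.7% (15.0 to 27.3), had overlapping intervals. At most 1.45% of thinned cells had GBP5 in the other 9 pairs. GBP3 was found in 87.2% and 79.0% of thinned cells of HTO2+HTO8 and HTO2+HTO9, and in 62.9% (57.6 to 68.0) of HTO2+HTO6 and 58.1% (52.6 to 63.4) of HTO2+HTO7. The share was 41.9% (34.3 to 49.8) in HTO4+HTO8 and 57.8% (46.9 to 68.1) in HTO4+HTO9. Per cell, HTO2+HTO6 and HTO2+HTO7 thus stood above HTO4+HTO8, while their intervals overlapped that of HTO4+HTO9.

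Most cells of the highest pairs carried several members at once. Of thinned cells, 83.8% (77.6 to 88.9) in HTO2+HTO8 had a UMI of 4 or 5 members, 69.1% in HTO2+HTO9, 53.3% in HTO4+HTO9 and 34.7% in HTO4+HTO8. The share was 11.9% in HTO2+HTO6, 11.4% in HTO2+HTO7 and 2.07% in HTO2+HTO5, and 0 to 0.366% in the remaining 6 pairs. Between 50.5 and 59.9% of thinned cells in those 6 pairs had no UMI of any member, against 1.12% in HTO2+HTO8. All 90 thinned cells of HTO4+HTO9 had at least 1 member.

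**Figure D3:**
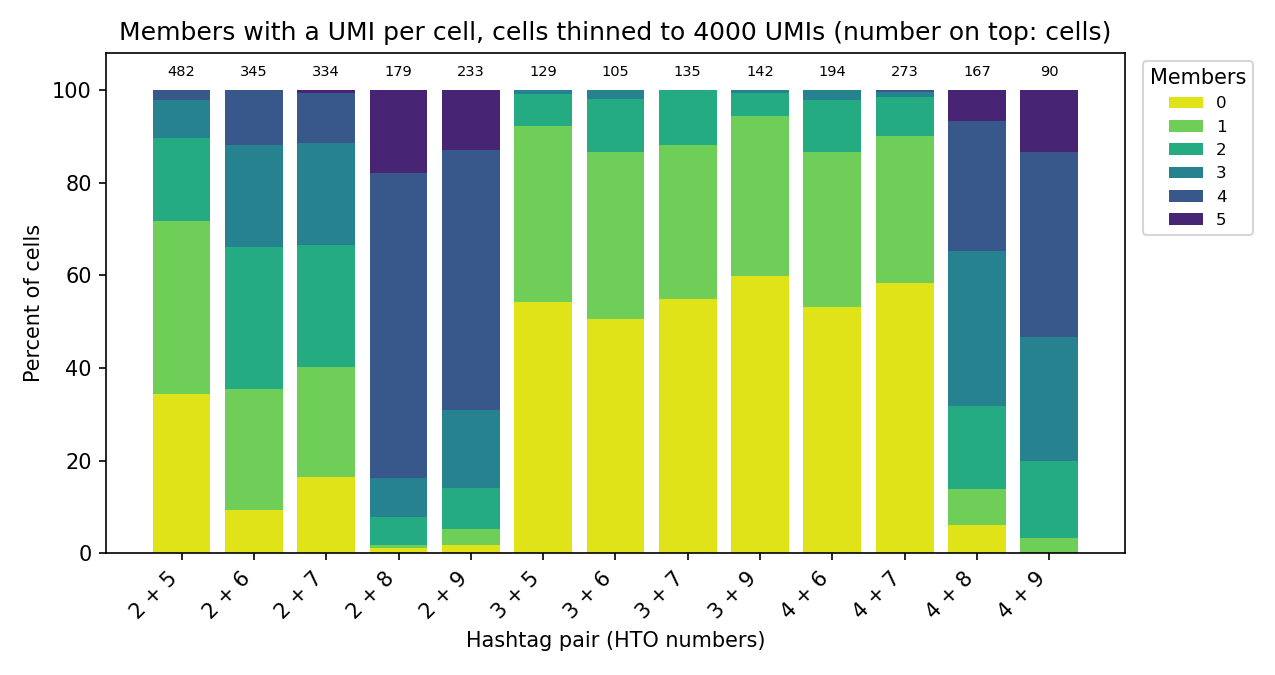
Percent of cells with a UMI of 0, 1, 2, 3, 4 or all 5 of GBP1 to GBP5 in each hashtag pair, after thinning every cell to 4000 UMIs; the number of cells stands above each bar. Cells with 4 or 5 members make up 83.8% of HTO2+HTO8 and at most 0.366% of the 6 pairs of lowest level.

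Few cells of the 4 highest pairs had no member before thinning. In HTO2+HTO9 these were 3 of 241 cells, at a median of 1004 UMIs where the other cells of that pair had 9530.5. In HTO4+HTO8 they were 5 of 197 cells, at 4934 against 7266.5 UMIs, and HTO2+HTO8 and HTO4+HTO9 had 1 such cell each. After thinning to 1 depth, 4 of 233 cells in HTO2+HTO9 and 10 of 167 in HTO4+HTO8 had none. The median cell of HTO2+HTO8 had 23 GBP1 UMIs, and the median cell of each of the 6 lowest pairs had 0.

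GBP1 and GBP4 varied together over the cells of the 4 highest pairs. Between GBP1 and GBP4 in thinned cells, Pearson's r was 0.649 in HTO2+HTO9 (233 cells), 0.517 in HTO2+HTO8 (179), 0.380 in HTO4+HTO8 (167) and 0.354 in HTO4+HTO9 (90). In thinned cells this one had, of the 10 combinations of members, the highest median over the pairs with a value, 0.356 over 8 of them. The other medians were lower but cover unlike sets of pairs: 0.117 for GBP1 and GBP2 over 11 pairs and 0.0559 for GBP4 and GBP5 over 4. Without thinning the first rank was lost: GBP1 and GBP4 had a median of 0.222 over 13 pairs. Over the same 13, GBP2 and GBP4 had 0.264 and GBP3 and GBP4 had 0.245. GBP1 and GBP5 had 0.267 over 4. Within single pairs, in thinned cells, GBP1 and GBP4 were not always the closest. GBP1 and GBP2 gave 0.658 in HTO2+HTO9 and 0.575 in HTO2+HTO8, above GBP1 and GBP4 there, but only 0.268 in HTO4+HTO8. In HTO4+HTO9 GBP2 and GBP3 gave 0.0431 and GBP4 and GBP5 gave -0.0842. GBP1 and IDO1, the tryptophan-degrading enzyme induced by interferon gamma, gave 0.753, 0.658, 0.463 and 0.230 in HTO2+HTO9, HTO2+HTO8, HTO4+HTO8 and HTO4+HTO9. These cells share 1 library and were set to 1 depth, and the values are descriptions. GBP5 with HLA-DRA, an MHC class II chain, gave 0.199 to 0.341 in the 4 pairs, with GBP5 in too few cells of the other 9 for a value. GBP5 with IDO1 was as close, at 0.203 to 0.380 in the same 4 pairs.

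Over the 13 pairs the members had like but not equal profiles on the log2(CPM + 1) scale. Pearson's r ran from 0.770 between GBP3 and GBP5 to 0.993 between GBP2 and GBP4, over pairs that share 1 library. Among 11082 genes with 100 UMIs or more, the profiles most like the sum of the 5 were those of ISG20 (r = 0.992), an interferon-induced exonuclease, C5orf56, NMI, TNFSF10, ETV7, RHBDF2, NUB1, IDO1, APOL2 and CASP4, the last at 0.980. GBP1 was nearest to ISG20, IDO1 and NMI, GBP2 to C5orf56, ISG20 and WARS, and GBP4 to WARS, ISG20 and ETV7.

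GBP3 and GBP5 had other nearest genes. Those of GBP3 were PRRC2C (r = 0.992), AF117829.1 (0.989) and ARF3 (0.985). PRRC2C moved only between 279.8 and 430.3 CPM and ARF3, a small GTPase of the Golgi, between 71.5 and 117 CPM. The likeness is thus one of the shape of the profile and not of the size of the change. Those of GBP5 were SAMHD1 (0.987), an interferon-inducible dNTP hydrolase, APOL6 and VAMP5, each with its highest level in HTO4+HTO9.

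Other interferon gamma response genes had the widest spread of the lists set beside the family, with a median ratio of 102. Of these, 10 of 11 reached 4-fold, beside 21% of all genes tested. The chemokine gene CXCL10 lay between 18.9 CPM (HTO4+HTO7) and 6480.1 CPM (HTO2+HTO9), and HTO4+HTO8 and HTO4+HTO9 had 366 and 517 CPM of it. IDO1 lay between 13.99 CPM (HTO3+HTO7) and 4494 CPM (HTO2+HTO8). PSMB9, an immunoproteasome subunit, was highest in HTO4+HTO9 at 1658 CPM with 1358 CPM in HTO2+HTO8, and B2M, the MHC class I light chain, lay between 2823 CPM (HTO3+HTO9) and 8562 CPM (HTO4+HTO9). GBP1 shared its top pair with IDO1, and GBP5 with PSMB9 and B2M.

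Of 13 genes of the interferon gamma receptor and its signalling, 8 reached 4-fold, beside 21% of all genes tested. The median ratio of that list was 5.90. IRF1, a transcription factor that activates GBP genes, lay between 86.6 CPM (HTO3+HTO6) and 1917 CPM (HTO2+HTO9). The kinase gene JAK1 varied only 2.41-fold and STAT3 2.16-fold. The profiles over the 13 pairs gave r = 0.982 between IRF1 and GBP2.

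The NF-kB pathway list, 5 of 9 at 4-fold (21% of all genes) with a median ratio of 4.78, had its highest levels in different pairs from gene to gene: HTO2+HTO9 for NFKB1, NFKB2, RELA and ICAM1, HTO2+HTO6 for RELB, NFKBIA and TNFAIP3, HTO2+HTO7 for REL and HTO3+HTO7 for TNFRSF1A. ICAM1, an adhesion molecule induced through NF-kB, stood at 903 CPM in HTO2+HTO6, 882 CPM in HTO2+HTO7 and 294 CPM in HTO2+HTO5, at 987 CPM and 1261 CPM in HTO2+HTO8 and HTO2+HTO9, and at only 146 CPM and 212 CPM in HTO4+HTO8 and HTO4+HTO9. NFKBIA, an NF-kB target gene whose product holds NF-kB in the cytoplasm, was highest in HTO2+HTO6 at 1272 CPM and in HTO2+HTO7 at 858 CPM, with 185 CPM in HTO4+HTO8. TNFRSF1A, the TNF receptor, varied 1.87-fold and NFKB1 3.59-fold. Like GBP3, ICAM1 and NFKBIA were higher in HTO2+HTO6 and HTO2+HTO7 than in HTO4+HTO8 and HTO4+HTO9. That order was not particular to the NF-kB list. JAK1 of the interferon gamma signalling list stood at 191 and 192 CPM in the former and 88.2 and 79.6 CPM in the latter. IFNGR1 and IFNGR2 of that list, named after their values were seen, had the same order.

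Over the 13 pairs, ICAM1 gave r = 0.927 with GBP3, 0.810 with GBP1 and 0.554 with GBP5. HLA-DRA gave 0.693 with GBP3, 0.865 with GBP1 and 0.969 with GBP5, and its levels were 839.5 CPM (HTO4+HTO9) and 761 CPM (HTO4+HTO8) against 287 CPM (HTO2+HTO8). The share of GBP3 in the family did not follow ICAM1 alone, since HTO2+HTO8 and HTO2+HTO6 had ICAM1 at 987 and 903 CPM and GBP3 shares of 14.4% and 36.0%.

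**Figure D4:**
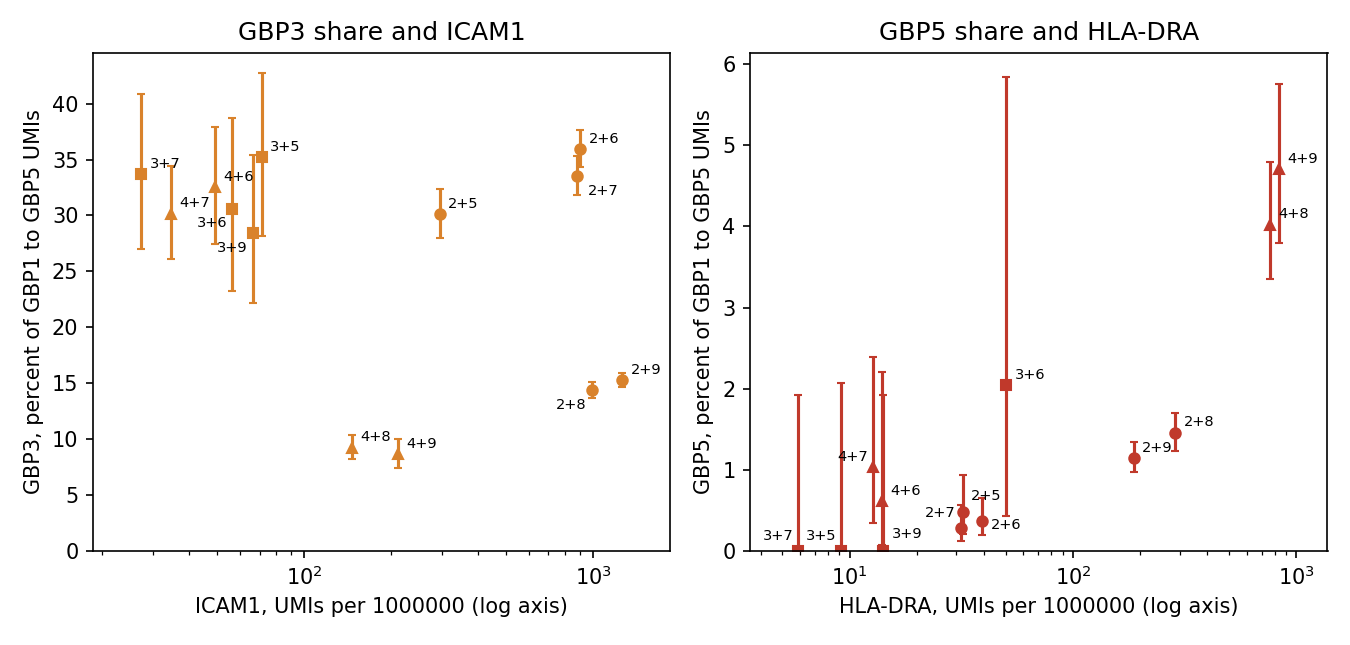
Left, the share of GBP3 among GBP1 to GBP5 UMIs (percent, exact 95% intervals) against the level of ICAM1 in each hashtag pair (CPM, log axis); right, the share of GBP5 against HLA-DRA. Circles, squares and triangles are pairs with HTO2, HTO3 and HTO4; HTO4+HTO8 and HTO4+HTO9 have the lowest GBP3 shares (9.22% and 8.62%) and the largest GBP5 shares (4.02% and 4.71%).

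Among the related GTPases, GBP partners and lipid-anchoring enzymes, the shares at 4-fold lay near the background, so their counts are no result about these lists. Of 7 large interferon-induced and related GTPases tested, 2 reached 4-fold, close to the 21% of all genes: MX1, an antiviral dynamin-like GTPase, lay between 94.6 CPM (HTO3+HTO9) and 849.6 CPM (HTO2+HTO8), and the other was GBP7. With the stricter filter 4 of 7 reached it, where 36% of all genes tested did so. MX2, ATL3 and DNM2 varied 3.20-fold, 1.31-fold and 1.75-fold. Of 7 partners and inflammasome genes tested 2 reached 4-fold, beside the same 21%, CASP1 and PIM1, which were named after their values were seen. CASP4, the lipopolysaccharide sensor that acts with GBPs, varied 3.84-fold and was highest in HTO2+HTO8 at 297 CPM, while GSDMD, PYCARD and LGALS3 varied 2.35-fold or less.

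Of 6 genes for prenylation and CaaX processing, which GBP1, GBP2 and GBP5 depend on, 1 reached 4-fold, again beside 21% of all genes: FNTB with 257 UMIs, named after its value was seen. FNTA, PGGT1B, ICMT and ZMPSTE24 varied between 1.37-fold and 2.58-fold. The median ratio of the list was 1.57, below the 2.56 of all genes tested.

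The 5 members lie in 1 cluster on chromosome 1 (GRCh38, GENCODE 29), each on the minus strand with 11 exons, and GBP7 overlaps GBP2 on the side of GBP4. GBP3 spans chr1:89006666-89022894, GBP1 chr1:89052319-89065360, GBP2 chr1:89106132-89150456, GBP4 chr1:89181148-89198932 and GBP5 chr1:89258950-89272804, a cluster of 266 kb. The ratio of highest to lowest pair did not run along the cluster: GBP3 at one end had 20.2, its neighbour GBP1 146, then GBP2 23.0 and GBP4 73.7. The 7 tested genes annotated within 500 kb on either side were PKN2, GTF2B, KYAT3, RBMXL1, LRRC8B, LRRC8C-DT and LRRC8C. None reached 4-fold, beside 21% of all genes tested, and their ratios were 1.62 to 3.85. Their median ratio was 2.63, near the 2.56 of all genes tested, so the count is no result about these genes.

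Inside the cluster, GBP7 (chr1:89131751-89176040) gave 603 UMIs. It stood at 88.6 CPM in HTO2+HTO8, 86.2 CPM in HTO4+HTO9, 67.1 CPM in HTO2+HTO9 and 52.5 CPM in HTO4+HTO8, at 12.8 CPM in HTO2+HTO6 and at 0.687 CPM in HTO4+HTO7, a ratio of 129 (35.2 to 1074) against 2 UMIs. Its span overlaps that of GBP2 on the same strand, so reads in the shared stretch are uncertain between them. GBP6, on the plus strand beyond GBP5, gave 5 UMIs in all.

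**Figure D5:**
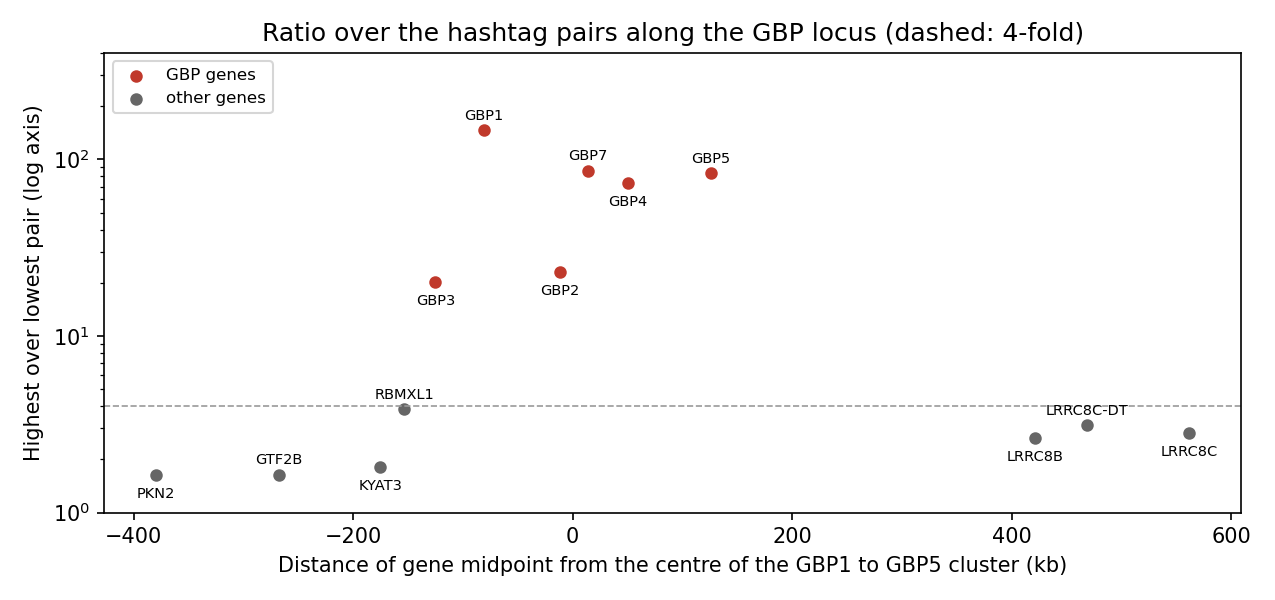
Ratio of the highest to the lowest hashtag pair (log axis) for the tested genes in and around the GBP cluster, against distance from the cluster's centre in kb; pairs with fewer than 3 UMIs were entered at 3 UMIs, which sets the points of GBP5 and GBP7. The GBP genes lie at 20.2 or above and the 7 flanking genes between 1.62 and 3.85, below the dashed 4-fold line. Of all genes tested, 21% reached that line.

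The members resemble one another, which can affect how reads are assigned. Their reference transcripts were 61.2 to 87.7% identical over aligned bases, with GBP1 and GBP3 the most alike. In the last 500 bases, where this 3' method reads, none of 451 stretches of 50 bases in GBP1, GBP2, GBP3 or GBP5 occurred in another gene's transcript, and 68 of 451 (15.1%) did in GBP4, all in genes outside the family.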

How the data were processed

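The authors deposited a matrix of UMI counts per gene and hashtag, without normalisation. Per the file headers its software was Cell Ranger 5.0.1. Cell Ranger 2.1.1 and GRCh38 stand in the submitters' processing notes. The upstream gene annotation is unknown from the sources used here. Columns of other samples numbered 0. Members and lists were chosen with earlier results of these data known. A cell's pair was its 2 highest of HTO2 to HTO9, the second with 20 counts or more and 4 times the third or more; pairs needed 50 cells. Barcodes without a clear pair (617 of those passing the cell filter) were left out, no doublet caller was run, and doublets within a pair cannot be seen.

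UMIs were summed per pair, with exact Poisson, Clopper-Pearson and conditional binomial 95% intervals; UMIs from 1 library give counting error only. Total UMIs per pair set the precision, and a count of 0 allows up to 3 counts. Genes needed 30 UMIs for a ratio and 100 for a profile; the pseudocount was 1. Named were the members, other GBP genes, the 4 genes of each list with the most UMIs, the 10 genes most like the sum and 3 most like each member, and genes within 500 kb. WARS1 was read as WARS, and GVINP1 was not matched. The single-gene values of 1 list gene picked by this rule are left out. Ratios were tested on simulated data. Alternatives were other cell filters, hashtag ratios, thinning, weights, denominators, gene minimums and Spearman correlation. Work was done in Python 3.11.15 with pandas 2.3.3, numpy 2.4.6, scipy 1.17.1 and matplotlib 3.10.9.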

Additional observations from a re-analysis of the deposited data

Results flagged for a closer look

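GBP UMIs also lay in barcodes that the comparisons did not use. Barcodes with a hashtag pair that failed the cell filter, by genes or by mitochondrial UMIs, held 18184 UMIs of GBP1 to GBP5 in 4491 barcodes. Their level was 771 CPM (760 to 782) beside 1296 CPM in the cells of the pairs. Barcodes that passed the cell filter without a clear pair held 7336 in 617 barcodes, at 1110 CPM (1084 to 1135), and those that failed both held 4391 in 981 barcodes, at 785 CPM (761 to 808). Among family genes outside the 5 members, GBP7 had 603 UMIs and GBP6 had 5, summed over the cells of all pairs. In no single pair did GBP6 have more than 2 UMIs, below the 3 counts that a count of 0 allows.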

How the results depend on the processing

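No paired analysis was possible because no label ties a hashtag pair to a tumour and there is 1 library. Of 164 results under an alternative, 124 stayed within a set tolerance and 38 moved beyond it. The other 2 were ratios that fell below 1, with intervals that include 1. The tolerance was a factor of 1.5 for counts of genes, 0.1 for correlations and the counting interval for all other values. The ratios of single pairs for GBP3 and GBP5 were chosen after seeing the data. The cause of each move was not tested. All 5 members stayed at 4-fold or more under every cell filter, hashtag ratio and depth tried.

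The stricter filter kept 400 cells. It gave ratios of highest to lowest pair of 81.2 for the sum, 74.0 for GBP2 and 35.8 for GBP3. The GBP5 ratio of HTO4+HTO9 to HTO2+HTO8 was 5.26, on 22 and 12 cells. The GBP3 ratios fell to 0.996 (HTO2+HTO6 to HTO4+HTO8) and 0.846 (HTO2+HTO7 to HTO4+HTO8) under this filter, with intervals that include 1. Family shares under it were 48.9% for GBP1 in HTO2+HTO9 and 29.2% for GBP3 in HTO2+HTO6. They were 28.5% for GBP4 and 7.84% for GBP5 in HTO4+HTO9. Of the related GTPases, 4 of 7 reached 4-fold, where 36% of all genes tested did so. In HTO2+HTO8, 100% of cells had each of GBP1, GBP2, GBP3 and GBP4.

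With up to 50% mitochondrial UMIs the same GBP3 ratios were 2.05 and 1.71, the HTO2+HTO8 shares of cells were 96.1% for GBP1, 93.0% for GBP3 and 94.4% for GBP4, and 0 prenylation genes reached 4-fold. With no cell filter the GBP1 ratio was 93.1 and the GBP3 ratios were 2.03 and 1.71. The shares of cells were 87.7% for GBP1, 83.9% for GBP2, 81.1% for GBP3 and 88.5% for GBP4 in HTO2+HTO8. For GBP5 in HTO4+HTO9 the share was 21.5%, and again 0 prenylation genes reached 4-fold. Of all genes tested, 19.7% reached 4-fold with the 50% limit and 19.1% with no cell filter.

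Thinned cells gave shares of 90.5% for GBP2, 87.2% for GBP3 and 93.9% for GBP4 in HTO2+HTO8, family shares of 34.2% for GBP3 in HTO2+HTO6 and 3.70% for GBP5 in HTO4+HTO9, and a GBP3 ratio of 1.81 for HTO2+HTO7 to HTO4+HTO8. Without thinning, the median r of GBP1 and GBP4 within pairs was 0.222 and no longer the highest of the combinations of members. Spearman correlation over pairs was 0.885 for GBP2 with GBP4 and 0.807 for GBP2 with GBP5. With a minimum of 100 UMIs, 1767 of 11087 genes reached 4-fold, 15.9%, in place of 2857 of 13596, 21%. Depth limits GBP5 most: at or below 3 UMIs in 5 pairs, its levels there cannot be ordered. Without a replicate of a known group, differences between pairs cannot be told apart from differences between tumours or in the handling of each suspension.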
